A study of Homo sapiens with 9 samples.

Results

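The data described here are the read counts of 29 genes of cholesterol synthesis and of its control by SREBP2, among 60664 genes in the deposited table. The genes were chosen by their known role and not by a measured value, though with earlier results of these data known. They comprise 4 genes of sterol sensing and SREBP2 activation, 8 of the mevalonate and isoprenoid steps, 11 of the squalene and sterol steps, and 6 of sterol transport, esterification and receptor control. All 29 passed the filter on low counts and were tested.

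Huh-7 cells derive from a human hepatocellular carcinoma. Polyadenylated RNA of 3 Huh-7 lines was sequenced in stranded libraries, 3 per line: unedited wild type cells (WT), cells without vtRNA1-1 (1-1 KO) and cells without vtRNA1-2 (1-2 KO). vtRNA1-1 and vtRNA1-2 are short non-coding RNAs of the vault particle family. The WT and 1-1 KO cells came from another laboratory, and 1-2 KO was grown from 1 CRISPR/Cas9-edited cell of that WT line, so each knockout stands for 1 line. All cells were untreated and grown to 80% confluency in DMEM/F12 with 10% heat-inactivated serum, which contains lipoproteins, and with antibiotics and glutamine. The labels do not say whether the libraries of a line came from separate cultures, so p-values measure the spread between libraries of 1 line, which may be technical.

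Cells make cholesterol from acetyl-CoA through the mevalonate pathway, whose branches also supply farnesyl and geranylgeranyl groups for proteins. SREBP2, encoded by SREBF2, is made as a membrane protein of the endoplasmic reticulum. When sterols are low, SCAP escorts it to the Golgi, where it is cut to release a transcription factor that raises the genes of the pathway; when sterols are high, INSIG proteins hold SCAP back. In hepatocytes this loop balances synthesis against uptake, storage and secretion of cholesterol.

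Total counts were between 32384469 and 41782387 per library. Levels are given as CPM, counts scaled to a common total by TMM-normalized library sizes, with mean ± SD and n = 3 libraries per line. All 9 hepatocyte markers examined were present in every line. Their summed level was between 15010 and 15956 CPM in WT. It was between 31192 and 32134 CPM in 1-1 KO and between 21201 and 23228 CPM in 1-2 KO. The part of this level in the results below was not tested. The markers did not move as a set. Mean ALB was 2531.5 CPM in WT, 9427 CPM in 1-1 KO and 4739 CPM in 1-2 KO. Mean AFP was 1759, 8167 and 7419 CPM in the same order. Of the other markers, APOB, TTR, FGB and TF had lower means in 1-2 KO than in WT. APOA1, SERPINA1 and HNF4A had higher means there. In 1-1 KO, only HNF4A was below WT (248 against 262 CPM). Of 5 endothelial markers, 3 were at 3 counts or fewer in each line, and of 5 leukocyte markers, 3 in WT and 2 in each knockout. The endothelial markers summed to between 7.42 and 8.04 CPM in WT, between 6.43 and 7.22 CPM in 1-1 KO and between 0.831 and 1.10 CPM in 1-2 KO, and the leukocyte markers to between 1.52 and 1.65, between 3.46 and 3.71 and between 2.62 and 3.18 CPM. The 5 fibroblast markers summed to between 34.3 and 35.6 CPM in WT, between 78.3 and 89.3 CPM in 1-1 KO and between 58.9 and 64.5 CPM in 1-2 KO. PECAM1 made up most of the endothelial sum, with means of 7.57 CPM in WT, 6.67 CPM in 1-1 KO and 0.839 CPM in 1-2 KO. Of the fibroblast markers, COL1A2 had means of 19.5, 64.9 and 38.4 CPM and COL1A1 of 11.4, 10.5 and 13.3 CPM, in the same order. The deleted genes cannot be checked in these libraries: VTRNA1-2 had a count of 0 in all 9, and VTRNA1-1 had a single count, in WT replicate 1. From bulk RNA, fewer cells with a transcript and less of it per cell cannot be told apart.

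Most of the pathway differed from WT in each knockout, in both directions and by less than 2-fold for all members but TM7SF2 in 1-1 KO. A gene was called when edgeR's quasi-likelihood test gave an adjusted p under 0.05 over 17207 tested genes. In 1-1 KO compared to WT, 17 of 29 genes rose, against 32.5% of all tested genes, and 7 fell, against 30.9%, while 5 were not called. Their log2 fold changes had a median of 0.26 and ran from -0.70 (PMVK) to 1.15 (TM7SF2), and the median of all tested genes was 0.01. In 1-2 KO compared to WT, 14 of 29 rose, against 28.2% of all tested genes, and 8 fell, against 26.2%, while 7 were not called. Here the median was 0.09, from -0.82 (IDI1) to 0.80 (TM7SF2), and that of all tested genes was 0.02. Both comparisons use the same WT libraries, so their values are set side by side and the difference between the knockouts is taken from a direct test.

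**Figure D1:**
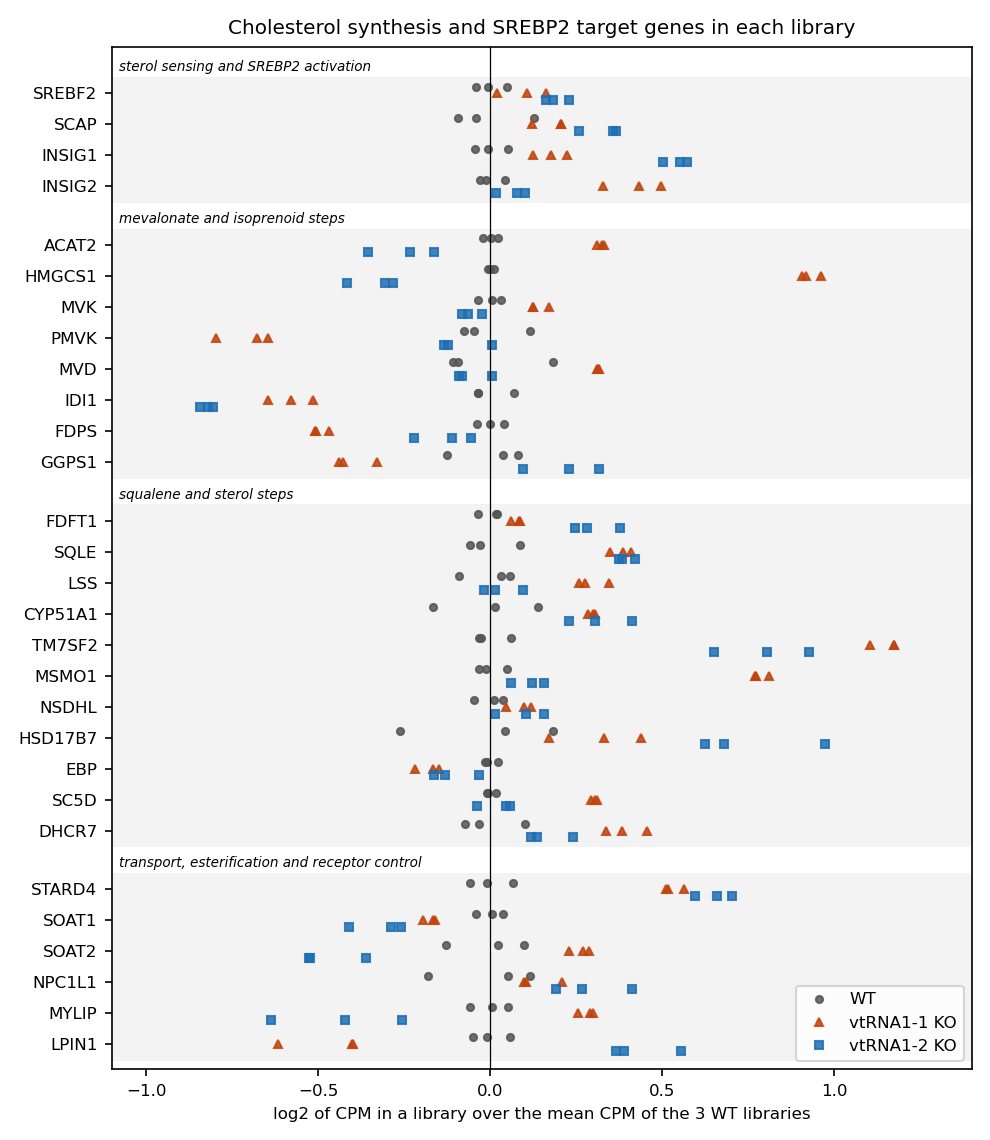
Level of each of the 29 genes in each of the 9 libraries, as log2 of its CPM over the mean CPM of the 3 WT libraries, in the order of the pathway; grey circles are WT, orange triangles 1-1 KO and blue squares 1-2 KO. HMGCS1 and TM7SF2 lay furthest above WT in 1-1 KO, and IDI1 furthest below WT in 1-2 KO.

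SREBP2 binds sterol regulatory elements near gene starts together with NF-Y, which binds CCAAT, and Sp1, which binds GC boxes. RefSeq promoter windows on GRCh38.p14 (250 bases before to 50 after a start) were available for 25 of the 29 genes, as 35 windows, and were searched on both strands. CCAAT was found for 20 of 25 genes (80% against 39.7% of 27305 genes with a window) and the GC box GGGCGG for 23 (92% against 48.3%). Counted by window, CCAAT was in 62.9% against 34.6% of all windows, and the GC box in 85.7% against 45%. The genes with a window were not limited to tested genes. The element TCACNCCAC was found for SREBF2 alone (4% against 1.39%), and its core CACNCCAC, which lies within it, for IDI1, INSIG1, SC5D and SREBF2 (16% against 7.05%). A match describes letters in these windows and not a bound site. The stretches before the start are shown for the factor's own gene, for INSIG1 and STARD4, called higher in both knockouts, and for MSMO1 and HMGCS1, whose knockouts differed most among the enzymes of sterol synthesis. They are written 5′ to 3′ on the strand of the gene, without bases annotated as coding or as untranslated regions. Exons of non-coding genes were not left out. Capitals mark TCACNCCAC, CACNCCAC or CCAAT on either strand.
SREBF2, chr22:41832905-41833104, plus strand: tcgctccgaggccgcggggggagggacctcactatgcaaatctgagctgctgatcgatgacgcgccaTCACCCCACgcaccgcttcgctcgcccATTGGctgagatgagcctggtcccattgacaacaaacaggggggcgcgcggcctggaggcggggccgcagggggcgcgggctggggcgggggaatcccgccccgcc
INSIG1, chr7:155297628-155297775, plus strand: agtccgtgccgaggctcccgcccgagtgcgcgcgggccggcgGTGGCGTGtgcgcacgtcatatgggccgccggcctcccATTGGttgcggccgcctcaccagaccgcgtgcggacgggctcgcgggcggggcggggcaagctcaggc
STARD4, chr5:111512591-111512785, minus strand: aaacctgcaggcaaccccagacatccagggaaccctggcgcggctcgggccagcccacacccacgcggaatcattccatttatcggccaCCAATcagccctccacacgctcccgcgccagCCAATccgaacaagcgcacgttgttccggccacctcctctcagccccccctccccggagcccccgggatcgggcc
MSMO1, chr4:165327467-165327666, plus strand: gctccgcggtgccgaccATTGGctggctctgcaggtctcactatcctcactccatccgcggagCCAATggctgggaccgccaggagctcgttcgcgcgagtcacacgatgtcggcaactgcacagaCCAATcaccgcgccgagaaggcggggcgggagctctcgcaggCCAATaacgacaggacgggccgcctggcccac
HMGCS1, chr5:43313513-43313662, minus strand: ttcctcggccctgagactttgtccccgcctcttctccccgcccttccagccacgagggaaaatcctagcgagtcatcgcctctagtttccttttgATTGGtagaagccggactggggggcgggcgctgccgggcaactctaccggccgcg

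Among the 4 genes of sterol sensing, 3 rose in 1-1 KO (all but SREBF2) and 3 rose in 1-2 KO (all but INSIG2), and 1 was not called in each. Of all tested genes, 32.5% rose in 1-1 KO and 28.2% in 1-2 KO. SREBF2 (chr22:41833105-41907306, plus strand), which encodes the factor itself, was at 203, 198 and 211 CPM in the WT libraries, at 219, 228 and 206 CPM in 1-1 KO and at 231, 228 and 239 CPM in 1-2 KO. The 1-2 KO libraries lay above all WT libraries, and the 1-1 KO libraries overlapped with them. SREBF2 rose in 1-2 KO by a log2 fold change of 0.19 (SE 0.041, edgeR adjusted p = 0.00125), and the value in 1-1 KO was 0.10 (SE 0.041, edgeR adjusted p = 0.0534). The latter was called under 6 of the 18 alternative settings and stayed positive under all 18.

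SCAP (chr3:47413681-47477126), the sterol-sensing escort of SREBP2, was at 95.9, 92.5 and 108 CPM in WT, 114, 114 and 107 CPM in 1-1 KO and 127, 118 and 126 CPM in 1-2 KO. It rose by 0.18 on the log2 scale in 1-1 KO (SE 0.053, edgeR adjusted p = 0.00884), where 1 library lay just below the highest WT library, and by 0.33 in 1-2 KO (SE 0.053, edgeR adjusted p = 1.08e-04). Without WT replicate 2, the 1-1 KO value was 0.13 and no longer called.

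INSIG1 (chr7:155297776-155310235) and INSIG2 (chr2:118088452-118110997) encode the retention proteins, of which INSIG1 is itself a target of SREBP2. INSIG1 was at 28.1, 28.8 and 30.0 CPM in WT, 31.6, 32.8 and 33.8 CPM in 1-1 KO and 43.1, 41.0 and 42.4 CPM in 1-2 KO. The 3 lines did not overlap, and INSIG1 rose by 0.18 in 1-1 KO and by 0.54 in 1-2 KO on the log2 scale (SE 0.047 in each; edgeR adjusted p = 0.00489 and 2.47e-07). INSIG2 was at 21.7, 20.6 and 20.9 CPM in WT, 29.7, 26.4 and 28.4 CPM in 1-1 KO and 21.3, 22.6 and 22.2 CPM in 1-2 KO. It rose in 1-1 KO (log2 fold change 0.42, SE 0.056, edgeR adjusted p = 1.47e-05), while its 1-2 KO libraries overlapped with WT (0.06, SE 0.057, edgeR adjusted p = 0.365). The direct test placed INSIG1 higher and INSIG2 lower in 1-2 KO than in 1-1 KO (log2 fold changes of 0.37 and -0.36, edgeR adjusted p = 7.21e-06 and 5.87e-05).

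**Figure D2:**
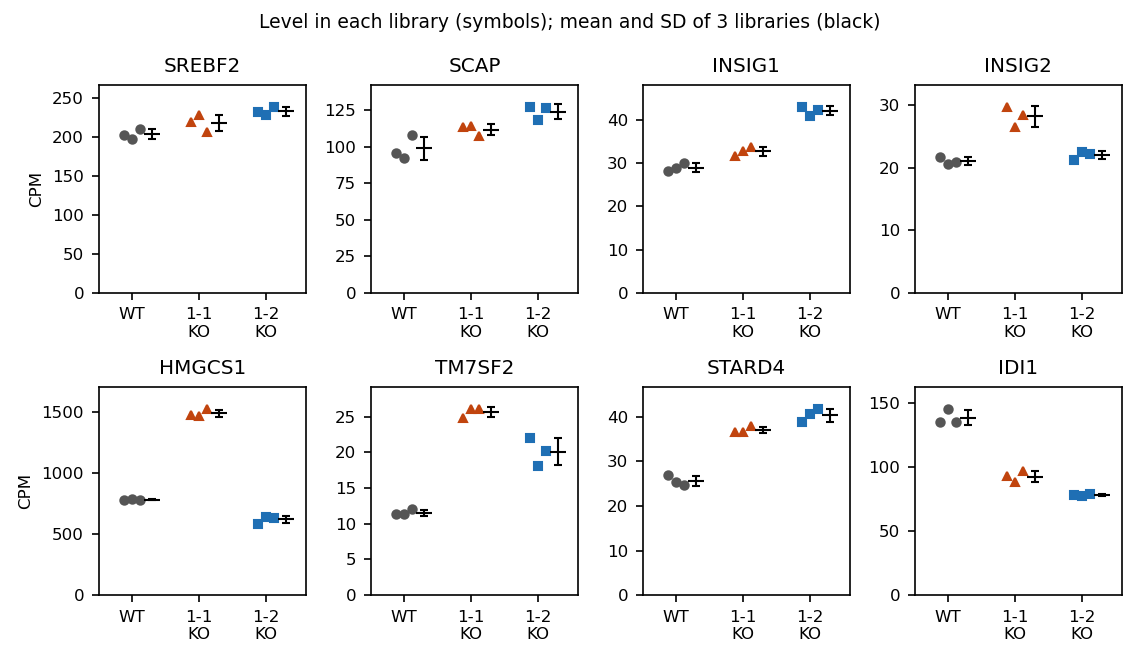
CPM of 8 genes in each library, with the mean and SD of the 3 libraries of a line in black; each vertical axis starts at 0. INSIG1 was highest in 1-2 KO and INSIG2 in 1-1 KO, HMGCS1 was highest in 1-1 KO and lowest in 1-2 KO, and IDI1 was below WT in both.

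The mevalonate and isoprenoid steps were split, with 4 of 8 genes higher and 4 lower in 1-1 KO, and 1 higher, 4 lower and 3 not called in 1-2 KO. The shares of all tested genes were 32.5% higher and 30.9% lower in 1-1 KO, and 28.2% and 26.2% in 1-2 KO. HMGCS1 (chr5:43287470-43313512, minus strand), which makes HMG-CoA from acetoacetyl-CoA, had the highest CPM of the 29 genes. It was at 782, 789 and 779 CPM in WT, 1479, 1468 and 1526 CPM in 1-1 KO and 586, 644 and 633 CPM in 1-2 KO. The 3 lines were fully separate. HMGCS1 rose 1.90-fold in 1-1 KO (log2 fold change 0.93, SE 0.039, edgeR adjusted p = 1.06e-10) and fell in 1-2 KO (-0.33, SE 0.039, edgeR adjusted p = 4.67e-06). In the direct comparison it was 2.40-fold lower in 1-2 KO than in 1-1 KO (log2 fold change -1.26, SE 0.039, edgeR adjusted p = 3.34e-12), the one member past 1 on the log2 scale there.

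The other members that rose in 1-1 KO at these steps were ACAT2, the cytosolic acetoacetyl-CoA thiolase (0.32), MVD, mevalonate diphosphate decarboxylase (0.31), and MVK, mevalonate kinase (0.14), as log2 fold changes. In 1-2 KO, ACAT2 fell by 0.25 on the log2 scale, and MVD (-0.05) and MVK (-0.06) were not called. The values for ACAT2 were 191, 194 and 188 CPM in WT, 239, 240.0 and 236 CPM in 1-1 KO and 149, 162 and 170.4 CPM in 1-2 KO, with no overlap between lines.

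The genes that fell in 1-1 KO were PMVK, phosphomevalonate kinase (log2 fold change -0.70, SE 0.063), IDI1, the isomerase of isopentenyl diphosphate (-0.58, SE 0.041), FDPS, which makes farnesyl diphosphate (-0.50, SE 0.042), and GGPS1, which makes geranylgeranyl diphosphate (-0.40, SE 0.075), with edgeR adjusted p-values between 2.46e-08 and 3.2e-04. IDI1 (chr10:1039152-1049119) was at 135, 145 and 135 CPM in WT, 92.8, 88.4 and 96.8 CPM in 1-1 KO and 78.5, 77.2 and 79.2 CPM in 1-2 KO. Each knockout lay below WT, and IDI1 fell further in 1-2 KO (-0.82, SE 0.042, edgeR adjusted p = 9.14e-10), with a difference between knockouts of -0.24 (edgeR adjusted p = 1.44e-04). In 1-2 KO, FDPS fell by 0.13 on the log2 scale, GGPS1 rose by 0.21 and PMVK was not called (-0.08).

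Summed over the 8 genes, the mevalonate and isoprenoid transcripts came to 1530 ± 5.90 CPM in WT, 2179 ± 32.6 CPM in 1-1 KO and 1253 ± 46.7 CPM in 1-2 KO. HMGCS1 carried the direction of that sum in 1-1 KO: without it, the other 7 genes came to 746 ± 4.26, 688 ± 2.14 and 632 ± 19.5 CPM in the same order, a split made after the values were seen. The squalene and sterol steps came to 1047 ± 24.3, 1301 ± 5.92 and 1179 ± 31.5 CPM. The sensing genes came to 353 ± 15.3, 390.5 ± 12.8 and 421 ± 10.3 CPM, and the transport group to 221 ± 1.07, 218 ± 1.99 and 214 ± 10.8 CPM.

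**Figure D3:**
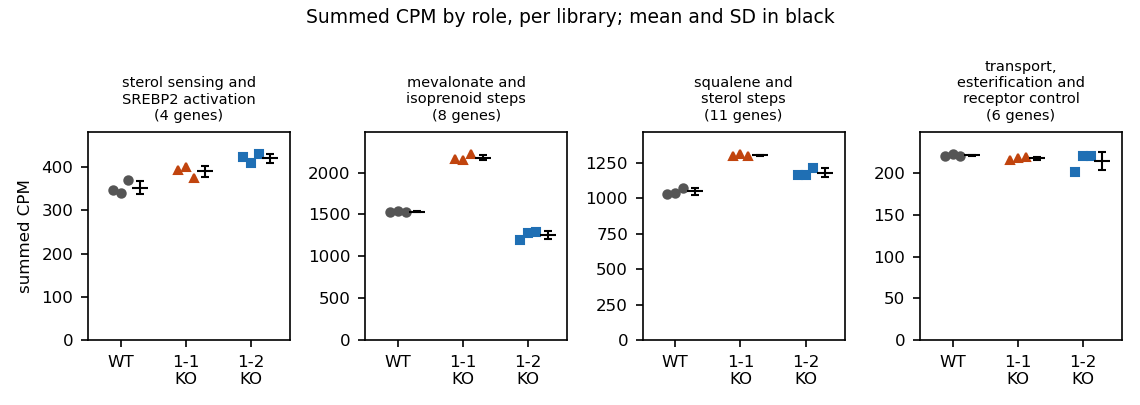
Summed CPM of the genes of each role in each library, with the mean and SD per line in black and axes from 0. The mevalonate sum was highest in 1-1 KO (2179) and lowest in 1-2 KO (1253), the sterol sum was above WT in both knockouts, and the transport sums were close, between 202 and 222.

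Of the 11 genes of the squalene and sterol steps, 7 rose and 1 fell in each knockout, and 3 were not called in each. Of all tested genes, 32.5% rose and 30.9% fell in 1-1 KO, and 28.2% and 26.2% did so in 1-2 KO. TM7SF2 (chr11:65111845-65116384, plus strand), a sterol C14 reductase, changed most in both. It was at 11.3, 11.3 and 12.0 CPM in WT, 24.8, 26.1 and 26.1 CPM in 1-1 KO and 21.98, 18.2 and 20.2 CPM in 1-2 KO. No knockout library approached WT. TM7SF2 rose 2.22-fold in 1-1 KO (log2 fold change 1.15, SE 0.071, edgeR adjusted p = 5.34e-09) and 1.74-fold in 1-2 KO (0.80, SE 0.071, edgeR adjusted p = 3.50e-07). It shares 18 exon bases with VPS51, a gene on the same strand, which also rose (0.45 and 0.55, edgeR adjusted p = 0.00944 and 0.00318), and the part of VPS51 reads in the TM7SF2 values was not tested.

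MSMO1, the C4 methyl sterol oxidase, rose in 1-1 KO (log2 fold change 0.78, SE 0.037, edgeR adjusted p = 3.02e-10) and by 0.11 in 1-2 KO (SE 0.037, edgeR adjusted p = 0.0179). Its libraries were at 129.5, 135 and 128 CPM in WT, 223, 223 and 229 CPM in 1-1 KO and 136, 142 and 146 CPM in 1-2 KO, so that 1-2 KO lay just above WT. The 1-2 KO call was lost under 5 of 18 alternatives and changed sign under 1. Its 50 nearest tested genes had a median of 0.42 in 1-1 KO, and less that median MSMO1 was at 0.37 there. SQLE, the epoxidase of squalene and a rate-limiting enzyme, rose in both (0.38 in 1-1 KO and 0.39 in 1-2 KO, SE 0.040 in each), with a direct difference of 0.01 (SE 0.040, edgeR adjusted p = 0.815). Less the median of its neighbours, SQLE was at 0.03 in 1-1 KO and no longer called, at 0.37 in 1-2 KO, and higher in 1-2 KO than in 1-1 KO by 0.34 (edgeR adjusted p = 4.91e-06).

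DHCR7, the last reductase of the pathway, rose by 0.39 and 0.17 and CYP51A1, the lanosterol 14-alpha demethylase, by 0.30 and 0.32, as log2 fold changes with 1-1 KO given first. LSS, which closes the ring to lanosterol (0.29), and SC5D, a sterol desaturase (0.30), rose in 1-1 KO and were not called in 1-2 KO (0.03 and 0.02). FDFT1, squalene synthase, and HSD17B7, a 3-ketosteroid reductase, rose in 1-2 KO (0.30 and 0.76) and were not called in 1-1 KO (0.08 and 0.31). The 1-1 KO value of HSD17B7 was called under 9 of the 18 alternatives. HSD17B7 was at 4.87, 4.43 and 3.58 CPM in WT, 5.81, 5.40 and 4.83 CPM in 1-1 KO and 6.62, 6.88 and 8.43 CPM in 1-2 KO, the lowest level of the 11. EBP, the sterol isomerase, fell by 0.18 and 0.11, and NSDHL, a C4 decarboxylase, was called in neither (0.09 in each).

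Of the 6 genes of transport, esterification and receptor control, 3 were higher and 2 lower in 1-1 KO, and 3 higher and 3 lower in 1-2 KO. These counts stand against 32.5% higher and 30.9% lower of all tested genes in 1-1 KO, and 28.2% and 26.2% in 1-2 KO. STARD4 (chr5:111496033-111512590), a soluble sterol carrier and an SREBP2 target, was at 26.9, 25.5 and 24.6 CPM in WT, 36.6, 36.7 and 37.9 CPM in 1-1 KO and 38.8, 40.6 and 41.8 CPM in 1-2 KO. Both knockouts lay above WT, by 0.53 and 0.65 on the log2 scale (SE 0.049 in each; edgeR adjusted p = 3.82e-07 and 5.66e-08). The 2 enzymes that store cholesterol as esters differed from each other: SOAT1 fell in both knockouts (-0.17 in 1-1 KO and -0.32 in 1-2 KO), whereas SOAT2 rose in 1-1 KO (0.26) and fell in 1-2 KO (-0.47). SOAT2 libraries were at 6.78, 7.95 and 7.55 CPM in WT, 9.05, 8.95 and 8.70 CPM in 1-1 KO and 5.15, 5.78 and 5.17 CPM in 1-2 KO. The lines were again separate, at a low level.

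MYLIP, the ubiquitin ligase that sends lipoprotein receptors to degradation and answers to LXR rather than SREBP2, rose in 1-1 KO (0.28, SE 0.092) and fell in 1-2 KO (-0.43, SE 0.097). It was at 6.56, 6.77 and 6.28 CPM in WT, 8.03, 7.81 and 7.99 CPM in 1-1 KO and 4.202, 4.87 and 5.47 CPM in 1-2 KO. Less the median of its neighbours, MYLIP was called in neither (0.18 and -0.12, edgeR adjusted p = 0.106 and 0.308). LPIN1, a phosphatidate phosphatase, moved the other way, with a fall of 0.47 in 1-1 KO and a rise of 0.44 in 1-2 KO on the log2 scale. LPIN1 libraries were at 14.2, 13.6 and 13.2 CPM in WT, 10.4, 8.90 and 10.3 CPM in 1-1 KO and 17.6, 20.1 and 17.9 CPM in 1-2 KO. NPC1L1, the sterol uptake transporter, rose in 1-2 KO (0.29) and was not called in 1-1 KO (0.14).

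In 1-2 KO compared directly to 1-1 KO, 9 of 29 genes were higher, against 33.1% of all tested genes, 14 were lower, against 32.2%, and 6 were not called. Among those higher, the call of STARD4 (0.12) was lost under 12 of the 18 alternative settings. That of SCAP (0.15) was lost under 5 and changed sign under 1. Besides HMGCS1, the largest log2 fold changes below 0 were those of SOAT2 (-0.73, SE 0.084), MYLIP (-0.71, SE 0.094), MSMO1 (-0.67, SE 0.036) and ACAT2 (-0.57, SE 0.043). Those above 0 were LPIN1 (0.91, SE 0.077), PMVK (0.62, SE 0.063), GGPS1 (0.61, SE 0.074) and HSD17B7 (0.45, SE 0.12). The largest edgeR adjusted p among these 9 was 0.00487, for HSD17B7. Less the median of their neighbours, GGPS1 (0.14) and HSD17B7 (0.23) were no longer called and PMVK was at 0.17. By that step MYLIP was at -0.31, MSMO1 at -0.39, ACAT2 at -0.33 and SOAT2 at -0.80, all still called lower. The median over the 29 genes was 0.00 (all tested genes 0.01). The members whose values per library are given beyond the 4 regulators and TM7SF2 were picked after their values were seen.

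Some of the smaller changes against WT rested on single libraries. In 1-1 KO, the rise of SOAT2 was no longer called without WT replicate 1 (0.20), and that of MVK without WT replicate 2 (0.12) or 1-1 KO replicate 3 (0.125). In 1-2 KO, the fall of FDPS was not called without WT replicate 1 (-0.11) or 1-2 KO replicate 1 (-0.08), nor that of EBP without WT replicate 1 (-0.10) or 1-2 KO replicate 1 (-0.08) or 2 (-0.10). The rise of GGPS1 in 1-2 KO was lost without WT replicate 3 (0.13) or 1-2 KO replicate 2 (0.21) or 3 (0.16). That of DHCR7 was lost without WT replicate 1 (0.13) or 2 (0.15) or 1-2 KO replicate 3 (0.13), and that of MSMO1 without WT replicate 1 (0.10) or 3 (0.08) or 1-2 KO replicate 3 (0.09). The call of HSD17B7 in 1-1 KO was gained without WT replicate 1 (0.41), 1-1 KO replicate 3 (0.38) or 1-2 KO replicate 1 (0.31) or 3 (0.31). That of SREBF2 was gained without WT replicate 3 (0.12), 1-1 KO replicate 3 (0.13) or 1-2 KO replicate 1 (0.10).

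Several members moved with the genes beside them on the chromosome. For each member, the median log2 fold change of its 50 nearest tested genes was taken. IDI1 lies near the end of chromosome 10, where these 50 genes span 13.03 Mb. Of them, 36 fell in 1-1 KO and 41 in 1-2 KO, with medians of -0.73 and -0.79 beside -0.58 and -0.82 for IDI1. On chromosome 1, PMVK (chr1:154924740-154936719) and FDPS (chr1:155308748-155320666) lie close together, and 38 and 40 of their neighbours fell in 1-1 KO, with medians of -0.64 and -0.70. Around GGPS1, farther along chromosome 1, 29 of 50 fell in 1-1 KO (median -0.33).

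HMGCS1 and VTRNA1-2 (chr5:140718925-140719013) both lie on chromosome 5, far from each other. In 1-2 KO, 36 of its 50 neighbours fell, with a median of -0.88 beside -0.33 for HMGCS1 itself, and 37 of the 50 lay below it. In 1-1 KO the neighbours had a median of 0.13 beside 0.93 for HMGCS1. Around LSS on chromosome 21, 40 of 50 neighbours rose in 1-1 KO (median 0.50 beside 0.29). TM7SF2 stood apart from its neighbours, with a value above 49 of 50 in 1-1 KO and above 50 of 50 in 1-2 KO, and medians of 0.03 and 0.09. What moved the neighbours was not tested.

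**Figure D4:**
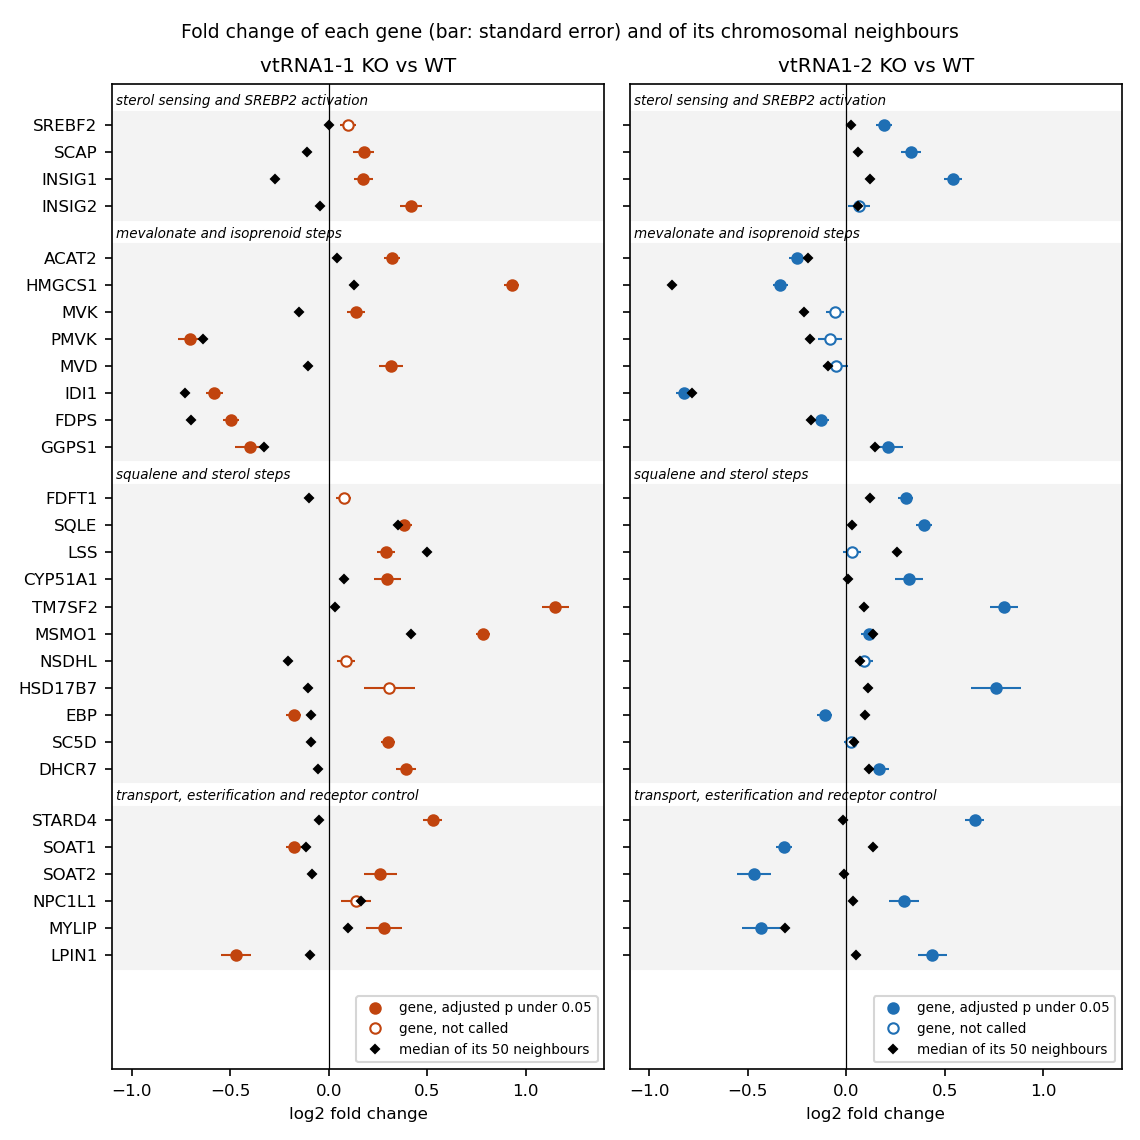
Log2 fold change of each gene against WT (circles, filled where edgeR's adjusted p was under 0.05, with the standard error as a bar) and the median of its 50 nearest tested genes (black diamonds), for 1-1 KO on the left and 1-2 KO on the right. PMVK and GGPS1 in 1-1 KO and IDI1 in 1-2 KO sat near the median of their neighbours. IDI1 and FDPS in 1-1 KO fell with their neighbours but sat above that median, and HMGCS1 sat above that of its neighbours in both.

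When each gene was tested against the median of its neighbours, 19 members were higher and 2 lower in 1-1 KO, against 28.6% and 29.1% of all tested genes. In 1-2 KO, 13 were higher and 4 lower, against 25.4% and 26.4%. Of the mevalonate and isoprenoid genes, 6 of 8 were then higher in 1-1 KO, and PMVK (-0.07) and GGPS1 (-0.07) were not called. In 1-2 KO, HMGCS1 and MVK (0.16) were higher and the other 6 were not called. IDI1 and FDPS changed sign in 1-1 KO (0.15 and 0.21, edgeR adjusted p = 0.00638 and 8.11e-04), as did HMGCS1 in 1-2 KO (0.55, edgeR adjusted p = 3.74e-08). Wherever a neighbour median was subtracted, it was taken as a fixed value, so the p-values leave out the spread among the 50 neighbours. IDI1 lay above 29 and FDPS above 35 of their 50 neighbours in 1-1 KO, and HMGCS1 above 37 in 1-2 KO. LSS turned to -0.21 in 1-1 KO and -0.23 in 1-2 KO, both called. The 2 members still lower in 1-1 KO were LSS and LPIN1, and the 4 in 1-2 KO were LSS, EBP, SOAT1 and SOAT2. Calls were also lost in 1-1 KO for SQLE, EBP (-0.09), SOAT1 (-0.06) and MYLIP, and gained for FDFT1 (0.18), NSDHL (0.29) and HSD17B7 (0.41). In 1-2 KO they were lost for ACAT2 (-0.06), IDI1 (-0.04), FDPS, GGPS1 (0.07), MSMO1 (-0.03), DHCR7 (0.05) and MYLIP.

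By the same measure, 22 of 29 members lay above the median of their neighbours in 1-1 KO and 20 of 29 in 1-2 KO, and 10 of 29 did so in 1-2 KO compared to 1-1 KO. The share of all tested genes above the median of their neighbours was not counted, so these counts have no baseline. In the direct comparison of the knockouts, 4 members were called higher and 16 lower, against 31.3% and 28.8% of all tested genes. HMGCS1 remained lower in 1-2 KO than in 1-1 KO, at -0.25 (edgeR adjusted p = 6.36e-05) in place of -1.26. LPIN1 remained higher (0.76) and SOAT2 lower (-0.80). The other members higher were PMVK, SQLE and NPC1L1 (0.29). Of those higher in 1-2 KO without this step, INSIG1 (-0.03), SCAP (-0.02), GGPS1, FDFT1 (0.00), HSD17B7 and STARD4 (0.09) were no longer called, and FDPS turned to -0.16 and was called lower. LSS (-0.02) was no longer called lower, and NSDHL (-0.27) and EBP (-0.12) now were.

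**Figure D5:**
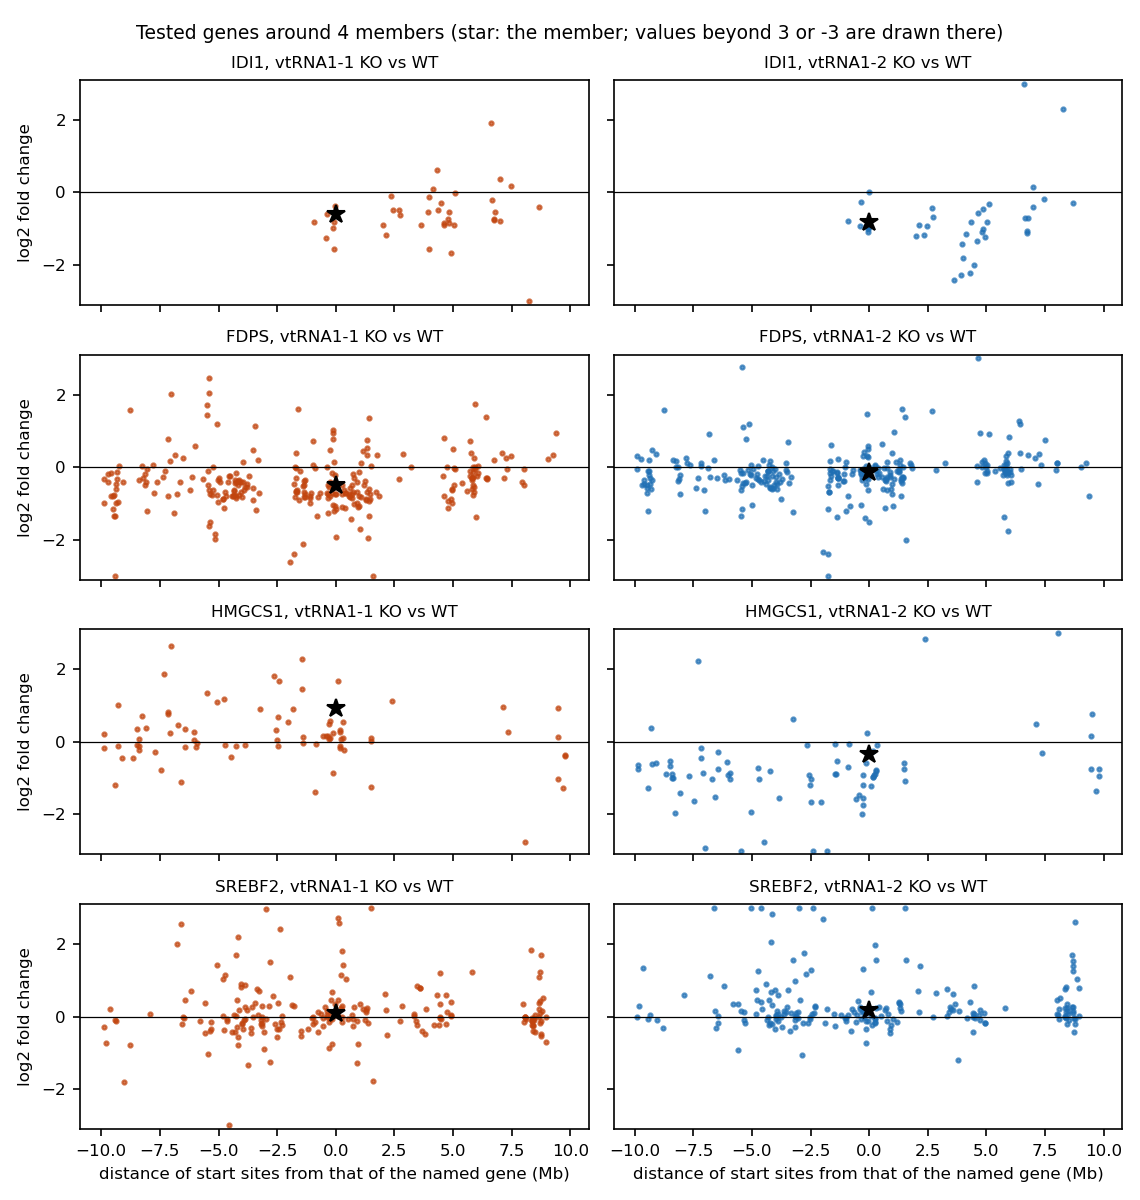
Log2 fold change against WT of every tested gene within 10 Mb of IDI1, FDPS, HMGCS1 and SREBF2 (star), by the distance between start sites in Mb, for 1-1 KO on the left and 1-2 KO on the right; values beyond 3 or -3 are drawn at that limit. Most genes around IDI1 lay below 0 in both knockouts, those around FDPS in 1-1 KO and those around HMGCS1 in 1-2 KO, and the genes around SREBF2 lay on both sides of 0.

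Per length of annotated exons, the level in WT was highest for HMGCS1 (118 ± 0.725 RPKM, that is, CPM per kilobase of exon), followed by EBP (77.1 ± 1.09), ACAT2 (72.3 ± 1.08), FDPS (62.001 ± 1.67) and MSMO1 (45.9 ± 1.35). These 5 were separated by more than their SD, and SQLE (26.4 ± 1.42) and SREBF2 (25.3 ± 0.803), lower in the order, were not. The lowest were HSD17B7 (0.898 ± 0.137), LPIN1 (1.15 ± 0.044) and MYLIP (2.13 ± 0.081). In 1-1 KO, HMGCS1 reached 225 ± 4.63 RPKM and MSMO1 79.0 ± 1.30, above EBP at 68.2 ± 1.67, and in 1-2 KO HMGCS1 was at 93.7 ± 4.62 RPKM.

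The rest of the pathway was read from 6 lists, in which the share of genes called must be set against 32.5% and 30.9% of all tested genes in 1-1 KO and 28.2% and 26.2% in 1-2 KO. In the list of SREBP processing and turnover, with COPII coat, protease and ubiquitin genes, 10 of 27 were higher and 11 lower in 1-1 KO, with 6 and 10 in 1-2 KO. SEC24D and SEC23B, coat subunits that carry SCAP out of the endoplasmic reticulum, rose in 1-1 KO (log2 fold changes of 1.00 and 0.90), and in 1-2 KO SEC24D rose (0.23) and SEC23B fell (-0.18). SAR1A, the GTPase of that coat, rose by 0.18 in 1-1 KO and fell by 0.38 in 1-2 KO, and ERLIN1, a membrane scaffold of sterol-driven degradation, fell in both (-0.43 and -0.48).

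In the list for the fatty acid arm, driven by SREBP1, 8 of 17 were higher and 6 lower in 1-1 KO, with 9 and 2 in 1-2 KO. This list also counted TMEM97 (0.36 and 0.13) and AACS (-0.27 and 0.26), with 1-1 KO given first. FADS2, a fatty acid desaturase, rose in both (0.60 and 1.28), as did the elongase ELOVL6 (0.76 and 0.41), and ME1, malic enzyme, fell in both (-1.01 and -0.98). SREBF1 itself fell in 1-1 KO (-0.32, SE 0.068, edgeR adjusted p = 7.92e-04) and was at 0.14 in 1-2 KO (SE 0.067, edgeR adjusted p = 0.0968). Of 10 LXR targets and efflux genes, 2 were higher and 4 lower in 1-1 KO, with 2 and 6 in 1-2 KO. ABCA1, the cholesterol exporter, fell in both (-0.27 and -0.34), as did NR1H3, which encodes LXR alpha (-0.46 and -0.29). ABCG8, a subunit of the sterol pump of the canalicular membrane, rose in 1-1 KO (0.77) and fell in 1-2 KO (-1.37), at 2.21 CPM in WT. SCARB1, the HDL receptor, fell in 1-1 KO (-0.49, with a neighbour median of -0.48), and PLTP, the phospholipid transfer protein, rose in 1-2 KO (1.23).

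In the non-sterol isoprenoid branch, 2 of 26 tested genes were higher and 11 lower in each knockout. RABGGTB, the beta subunit of the enzyme that attaches geranylgeranyl groups to Rab proteins, fell by 0.93 in 1-1 KO and 0.89 in 1-2 KO on the log2 scale. CHML, a Rab escort protein, fell by 1.14 and 0.50, and COQ3, a methyltransferase of coenzyme Q synthesis, fell by 0.84 and 0.69. In lysosomal and cytosolic sterol transport, 7 of 20 tested genes were higher and 10 lower in 1-1 KO, with 4 and 8 in 1-2 KO. OSBPL1A, an oxysterol-binding protein, rose in both (1.98 and 2.28), and GRAMD1B, which moves cholesterol from the plasma membrane, fell in both (-2.14 and -1.102) at 1.94 CPM in WT.

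Of 13 tested genes of other sterol enzymes and their redox partners, 8 were higher and 1 lower in 1-1 KO, with 3 and 8 in 1-2 KO. AKR1D1, the 5-beta reductase of bile acid synthesis, rose in both (1.99 and 2.34). CES1, a carboxylesterase that acts on cholesteryl esters, rose in both (0.96 and 3.102), from 2.87 ± 0.136 CPM in WT to 5.57 ± 0.468 and 24.6 ± 1.94 CPM. CYP7B1, the oxysterol 7-alpha hydroxylase, rose in 1-2 KO from 0.383 ± 0.040 to 5.25 ± 0.188 CPM (log2 fold change 3.76, SE 0.14, edgeR adjusted p = 4.78e-11), while 1-1 KO was at 0.362 ± 0.018 CPM. In the direct test CYP7B1 was 14.4-fold higher in 1-2 KO than in 1-1 KO (edgeR adjusted p = 1.85e-11).

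Some members share sequence with other genes, and whether the counting used the strand is not given in the sources used here. GGPS1 shares 1422 exon bases with another annotated gene on its own strand, whose count was 16.4% of that of GGPS1. ACAT2 shares 454 bases with TCP1 on the other strand, and TCP1 fell in both knockouts (-0.21 and -0.54). CYP51A1 shares 108 bases with AKAP9 on the other strand, which rose in 1-1 KO (0.64). STARD4 shares 124 with STARD4-AS1, which was called in neither (-0.05 and -0.14). The pseudogenes HSD17B7P2 and CYP51A1P2 held 14.98% and 9.88% as many counts as HSD17B7 and CYP51A1, so reads of these members may be split, and HSD17B7P2 rose in 1-1 KO (0.99). The part of shared reads in these members' values was not tested.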

How the data were processed

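RNA of 3 lines was made into 9 TruSeq stranded mRNA libraries, 3 per line. Per the submitters' processing notes and the methods, the authors used STAR with GRCh38 for alignment and featureCounts for gene-level counts, and deposited these counts as whole numbers with no normalization. Strand setting and treatment of reads with several matches are not given in the sources used here. Genes counted on shared bases can therefore gain or lose reads.

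Of 60664 identifiers, 60463 matched GENCODE 44 on GRCh38, which gave symbols, positions and exon lengths, and 201 did not (0.0192% of counts). Counts were tested in R 4.3.3 with edgeR 4.0.16: filterByExpr (minimum count 10, minimum total 15), TMM, 1 quasi-likelihood fit of 9 libraries with a term per line, and Benjamini-Hochberg adjustment over 17207 genes per comparison at 0.05. The SE is the absolute log2 fold change over the square root of F. The biological coefficient of variation was 5.55%. Counts of same-line libraries differed by more than counting error (chi-square values from 2.05 to 15.8 for each degree of freedom), and each was kept as its own replicate. Markers at 3 counts or fewer in a line were taken as at the floor, which covers counting error only. Promoters came from RefSeq, and matches were listed in Python 3.11.15 with pandas 2.3.3. The fit was tested on simulated counts in which a limited set of genes changed in 1-1 KO, without shifts of neighbouring genes. The motif search was tested on short made-up sequences.

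The 29 genes, the 6 lists and the rules were chosen with earlier results of these data known. Named were all 29 genes, with values per library for regulators and for called genes past a log2 fold change of 1 against WT, and of each list the 2 called genes with the largest change per knockout at a mean of at least 1 CPM, with SREBF1, NR1H3 and ABCA1. Other genes with values per library were chosen after those were seen. Alternatives were DESeq2 1.42.0, its size factors in edgeR, library size alone, no filter, at least 10 counts in every library, only the 2 groups compared, a replicate block, an adjusted p under 0.01, subtraction of the median of 50 neighbours, and leaving out each library. Some genes of this pathway are not reported here.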

Additional observations from a re-analysis of the deposited data

How the results depend on the processing

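Leaving out each library in turn, members higher in 1-1 KO numbered between 15 and 20 and in 1-2 KO between 11 and 15. Members lower numbered 7 in 1-1 KO and between 6 and 8 in 1-2 KO. Between the knockouts, between 7 and 10 were higher in 1-2 KO and 14 lower. Their median log2 fold changes were between 0.198 and 0.276 in 1-1 KO, lowest without WT replicate 1, between 0.061 and 0.13 in 1-2 KO, and between -0.029 and 0.0072 for 1-2 KO compared to 1-1 KO. Scaling by library size alone moved the medians to 0.313 and 0.147, and requiring 10 counts in every library moved that of 1-1 KO to 0.285. Subtracting the median of neighbouring genes left 2 members lower in 1-1 KO in place of 7, 4 lower in 1-2 KO in place of 8, and 4 higher in 1-2 KO than in 1-1 KO in place of 9, with a median there of -0.132. Under that setting, among values called with or without it, signs changed in 1-1 KO for IDI1 (0.15), FDPS (0.21) and LSS (-0.21). In 1-2 KO they changed for HMGCS1 (0.55), MVK (0.16), FDPS (0.0477), LSS (-0.23), MSMO1 (-0.0252) and SCARB1 (-0.14). Between the knockouts they changed for SCAP (-0.0237), INSIG1 (-0.0275), FDPS (-0.16), NSDHL (-0.27), EBP (-0.12), SCARB1 (-0.14) and NR1H3 (-0.018). Signs of members called neither way changed for NPC1L1 in 1-1 KO (-0.03) and for PMVK (0.10), MVD (0.04) and SC5D (-0.02) in 1-2 KO. No list's count of called genes moved by over 1.5 times under any alternative. The cause of these moves was not tested.

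Replicate numbers did not pair libraries: correlations of same-numbered libraries were between -0.30 and 0.13, with 1 of 9 over 0.1, and 0 of 9 libraries correlated best with their own number. With a replicate block, 1 member's call was lost, STARD4 between the knockouts (0.12, edgeR adjusted p = 0.0603).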
